A study of Mus musculus with 2 samples.

Results

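The 9 genes described here handle iron and reactive oxygen in phagocytes and were followed through the microglia of amyloid-bearing mice: Fth1, Ftl1, Hmox1, Slc40a1, Slc11a1, Tfrc, Nfe2l2, Cybb and Cyba. They were chosen by name, with earlier results of these data known, and all 9 were found among the 32285 rows of the deposited count table. Each was described by library and by cell state, with states set by raw counts of marker genes that are not among the 9.

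PSAPP mice carry APPswe/PS1δE9 transgenes and deposit amyloid plaques, and both treatment groups had this genotype. They were gavaged daily with vehicle (VEH) or with 30 mg/kg of lemborexant (LEM), a blocker of both orexin receptors that is used as a sleep medicine, for 30 days from 9 months of age, and were taken at 10 months. From 1 hemisphere of each mouse, living cells with CD11b and low CD45 were isolated by flow cytometry out of the cortex plus hippocampus. Each treatment gave 1 droplet library of 5′ gene expression, a pool of 5 mice in which both sexes were present. A treatment was thus 1 pool without replicates, so no test or p-value between VEH and LEM is possible, and the spread between mice is unknown.

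The VEH library held 18374 cells with a median of 5971 counts of unique molecular identifiers per cell, and the LEM library 24392 cells with a median of 6034. The 5 microglial markers that no gate used were all detected and summed to 36689 and 37709 CPM (counts per 1e6 counts), and the summed markers of red blood cells stood at 1.1 and 1.13 CPM. Cells were called female (Xist without Y-linked counts; 5686 VEH and 8409 LEM cells) or male (the reverse; 9025 and 11223). Cells that held both were 5.34% and 7.23%. Levels are CPM of the counts summed over a group of cells. A range after a value is its exact 95% interval, from the Poisson distribution for a level and the conditional binomial for a log2 ratio, and covers counting error only. Because UMI counts are not scaled to length, levels are compared within a gene only.

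Iron that microglia take up is held inside cages of ferritin, built of a heavy chain that oxidizes iron (Fth1) and a light chain (Ftl1), and leaves the cell through ferroportin (Slc40a1), the only known cellular iron exporter. Iron comes in through the transferrin receptor (Tfrc), is moved out of phagosomes by the metal transporter Nramp1 (Slc11a1), and is freed from haem by haem oxygenase 1 (Hmox1). The transcription factor NRF2 (Nfe2l2) turns on antioxidant genes, ferritin and Hmox1 among its targets, while the membrane core of the phagocyte NADPH oxidase (Cybb and Cyba, encoding gp91phox and p22phox) makes superoxide.

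Of the 9 messages, 4 are known to be under direct control by iron regulatory proteins, which bind a hairpin, the iron-responsive element. At the 5′ end of an mRNA the hairpin blocks translation when iron is short, and in the 3′ UTR of Tfrc it protects the message in the same condition. The elements are shown because translational control at the 5′ end is not seen by RNA counts. They were searched for in protein-coding GENCODE M21 transcripts (GRCm38) as a loop of 6 bases, CAGTG followed by A, C or T, between 2 arms of 5 bases that pair (G with T allowed), with a C just before the stem, on the sense strand only. Capitals mark the loop in the 30 bases printed 5′ to 3′:
Fth1, 5′ UTR, chr19:9982732-9982761, plus strand: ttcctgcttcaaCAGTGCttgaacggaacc
Ftl1, 5′ UTR, chr7:45459778-45459807, minus strand: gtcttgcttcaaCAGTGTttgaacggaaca
Slc40a1, 5′ UTR, chr1:45925464-45925493, minus strand: caacttcagctaCAGTGTtagctaagtttg
Tfrc, 3′ UTR, chr16:32631219-32631248, plus strand: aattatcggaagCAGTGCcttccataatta
Tfrc, 3′ UTR, chr16:32631598-32631627, plus strand: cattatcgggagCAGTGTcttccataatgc
Tfrc, 3′ UTR, chr16:32631663-32631692, plus strand: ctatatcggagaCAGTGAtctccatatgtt
Tfrc, 3′ UTR, chr16:32631710-32631739, plus strand: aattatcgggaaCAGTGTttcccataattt
The pattern was found in the 5′ UTR of 20 of 20890 protein-coding genes (0.0957%) and in the 3′ UTR of 96 of 20998 (0.457%). Among the 9 genes it was found in these 4. The other 5 lie at chr8:75093621-75100589 (Hmox1), chr1:74375195-74386062 (Slc11a1), chr2:75675513-75704641 (Nfe2l2), chrX:9435252-9487771 (Cybb) and chr8:122424776-122432930 (Cyba). A match is a description of letters, and how the mice's cells used these elements was not measured.

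States were gated in a fixed order so that each cell had 1. Disease-associated microglia (DAM) needed at least 3 of 6 DAM markers found in the table (Cst7, Lpl, Spp1, Itgax, Gpnmb, Igf1), MHC-II cells all of H2-Aa, H2-Ab1 and H2-Eb1, interferon cells 4 of 6 interferon-induced genes, mitotic cells 3 of 6 cell cycle genes, and border-associated macrophages (BAM) 3 of 7 macrophage markers. Choroid plexus droplets needed 3 of 7 epithelial markers with Ttr at 10 or more, chemokine cells Ccl3 and Ccl4 at 5 or more each, early-response cells 4 of 6 immediate-early and heat shock genes, and Apoe-high cells Apoe at 20 or more with at most 1 DAM marker. Homeostatic cells had 0 counts of the DAM and MHC-II markers and of 5 interferon markers, with P2ry12 at 3 or more and Tmem119 at 1 or more. DAM cells were 494 in VEH and 646 in LEM, and homeostatic cells 10105 and 11512. The DAM gate was checked with 6 DAM genes that it did not use (Axl, Cd9, Ctsb, Ctsd, Fabp5, Ank), whose summed level was 31269 and 32219 CPM in DAM against 11400 and 12919 CPM in homeostatic cells. A gate is a range and not a type: 252 VEH and 326 LEM DAM cells had just 3 markers, and 457 and 729 cells outside the gate had 2. DAM cells were also deeper (median 11148 and 11554 counts, against 5481 and 5431). Values at equal depth are therefore given for Fth1, Hmox1 and Slc40a1 in DAM. Other state differences are given without them. Mitotic cells were deep as well, with a median of 9969 and 10054.5 counts.

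Ferritin heavy chain differed strongly by state. Fth1 was highest in DAM: 4216 CPM (4162 to 4271) in VEH and 4198 (4152 to 4244) in LEM, against 1720 (1709 to 1731) and 1789 (1779 to 1799) in homeostatic cells. DAM therefore held 2.45-fold and 2.35-fold the homeostatic level, a log2 ratio of 1.29 and 1.23, with all bounds between 1.21 and 1.31. MHC-II cells (3863 and 3805 CPM) and BAM (3600 and 3928) followed, and their intervals overlapped in both libraries. Below them came choroid plexus-gated droplets at 2968 and 3086 CPM, interferon cells at 2434 and 2756, chemokine cells at 2262 and 2429 and mitotic cells at 2056 and 2306. Early-response, Apoe-high, ungated and homeostatic cells lay between 1720 and 2136 CPM. The order was the same in both libraries except for MHC-II cells against BAM and for the places of Apoe-high and ungated cells.

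The light chain was higher in DAM by less than the heavy chain, and went the other way in some states. Ftl1 was at 409 and 347 CPM in DAM against 297 and 255 in homeostatic cells, a log2 ratio of 0.46 (0.40 to 0.53) and 0.44 (0.38 to 0.50), below the 1.5-fold used to call a state difference. It was lowest in mitotic cells (213 and 196 CPM) and in choroid plexus-gated droplets (191 and 201), where Fth1 was above its homeostatic level. In mitotic cells the log2 ratio to homeostatic cells was -0.48 and -0.38 for Ftl1 and 0.26 and 0.37 for Fth1. Ftl1 has a near-identical copy in the table, Ftl1-ps1 (7.67 and 5.01 CPM in homeostatic cells). Reads that fit both may not have been counted for Ftl1, so the level of Ftl1 is uncertain.

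Ferroportin went the other way. Slc40a1 was at 62.9 CPM (56.4 to 69.9) and 55.8 CPM (50.6 to 61.4) in DAM against 169 and 156 CPM in homeostatic cells, a log2 ratio of -1.42 (-1.58 to -1.27) and -1.48 (-1.63 to -1.34). It was thus at 0.373 and 0.358 of the homeostatic level. MHC-II cells (82.2 and 83.6 CPM), mitotic cells (104 and 88.9) and interferon cells (113 and 102) were also low. BAM had 113 CPM on 24 counts and 67.1 CPM on 39 counts, with overlapping intervals. The highest levels were in early-response, Apoe-high and homeostatic cells, at 147 to 171 CPM.

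Haem oxygenase 1 was in the same direction as ferritin heavy chain in DAM, MHC-II cells, BAM and chemokine cells, but not in every state. Hmox1 was at 55.9 CPM (49.8 to 62.6) and 60.3 (54.9 to 66.1) in DAM and at 32.1 and 35.0 in homeostatic cells, a log2 ratio of 0.80 (0.62 to 0.98) and 0.79 (0.64 to 0.93). MHC-II cells had 53.3 and 64.2 CPM, BAM 56.6 and 56.8 on 12 and 33 counts, and chemokine cells 51.4 and 54.2. These 4 states overlapped in their intervals. Mitotic cells were at 15.8 CPM in VEH and 35.0 CPM in LEM, on 23 and 78 counts. Their log2 ratio to homeostatic cells was -1.02 (-1.68 to -0.43) in VEH and 0.00088 (-0.34 to 0.33) in LEM. In choroid plexus-gated droplets it was -1.27 (-2.90 to -0.05) and -0.30 (-0.82 to 0.18), on 5 and 35 counts. Fth1 was above its homeostatic level in both states.

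**Figure D1:**
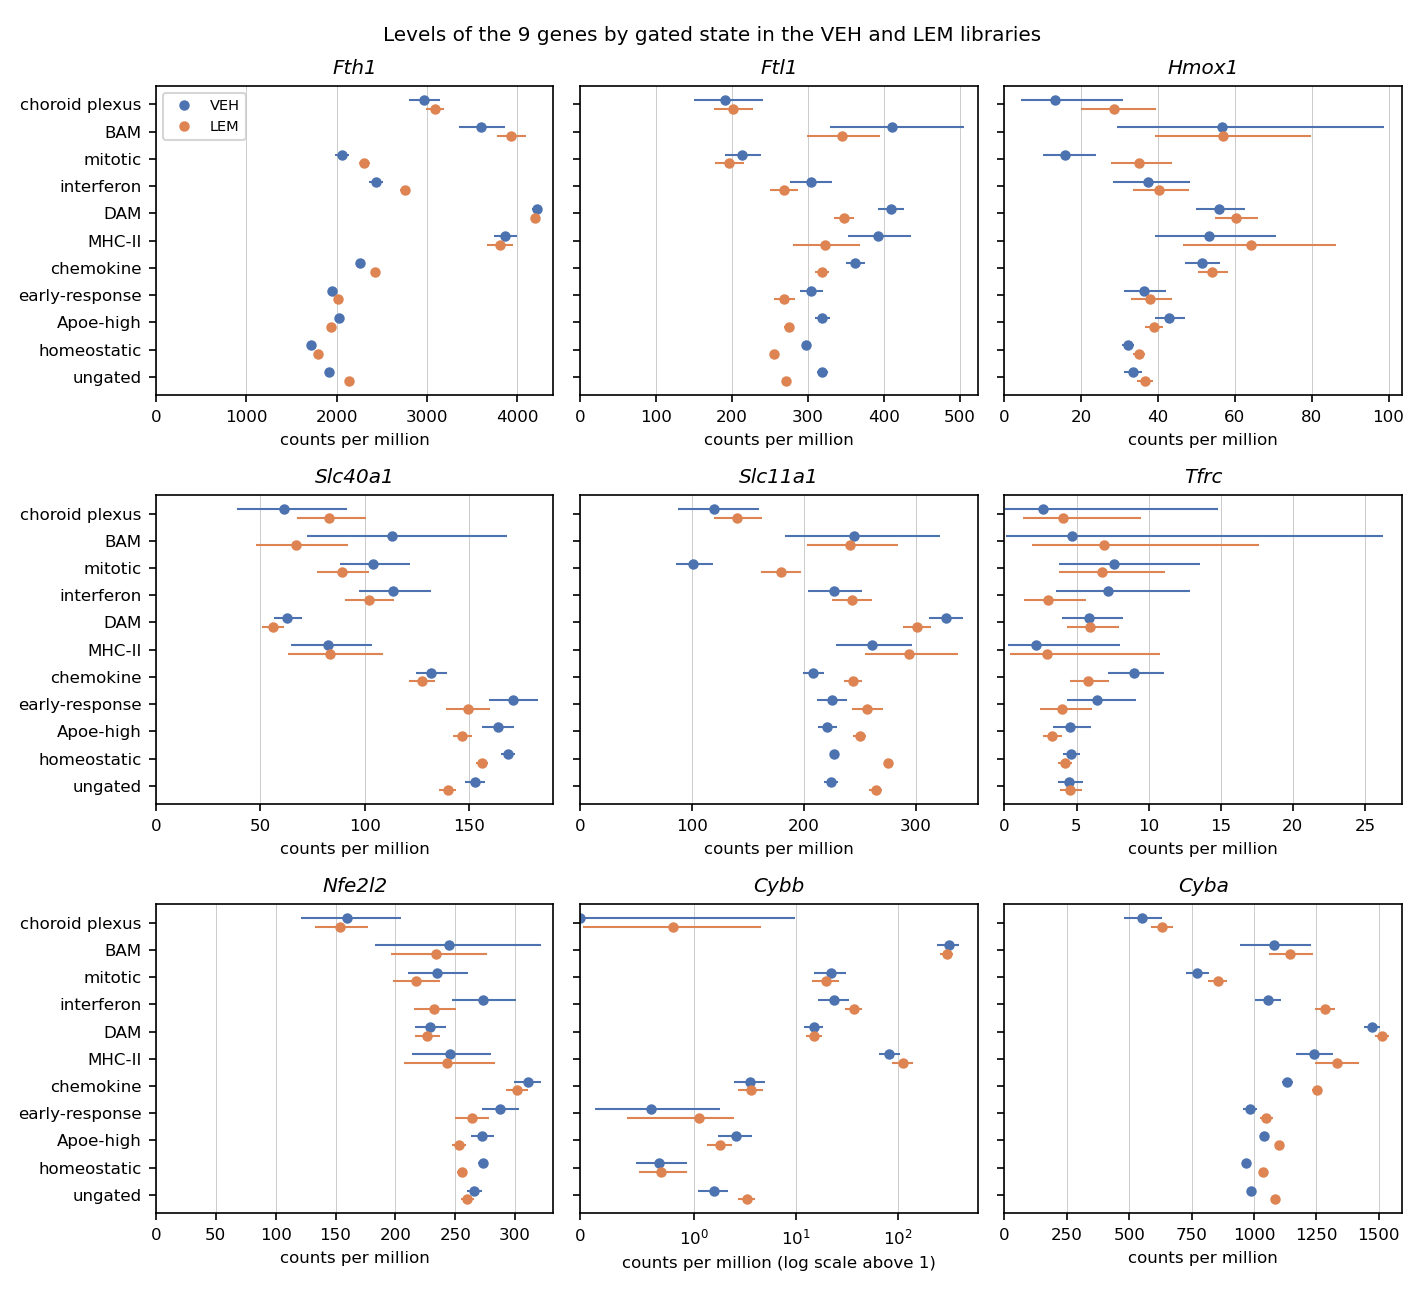
Level of each gene in CPM (x axis, on a log scale above 1 for Cybb) by gated state (y axis) in the VEH and LEM libraries; points are CPM of summed counts and bars exact Poisson 95% intervals. Fth1 peaks in DAM at 4216 and 4198 CPM, Slc40a1 is lowest among microglial states in DAM at 62.9 and 55.8 CPM, and Cybb is at 311 and 299 CPM in BAM and at 0.690 and 0.707 CPM in homeostatic cells.

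The import genes did not pass 1.5-fold in DAM. Slc11a1 in DAM was at 327 CPM (312 to 342) in VEH and 301 (289 to 314) in LEM, against 227 and 276 in homeostatic cells. The log2 ratio was 0.53 (0.45 to 0.60) in VEH and 0.13 (0.06 to 0.19) in LEM, intervals that do not overlap. This gap came with a homeostatic level that was higher in LEM and a DAM level that was lower, and without replicates it was not tested. In mitotic cells Slc11a1 was at 101 and 179 CPM, 0.445 and 0.650 of the homeostatic level. Tfrc was rare, with 596 counts in VEH and 695 in LEM, and between 2.22 and 8.97 CPM in every state. Among the 5 states compared it passed 1.5-fold in both libraries in mitotic cells, 7.57 and 6.74 CPM on 11 and 15 counts against 4.63 and 4.17 in homeostatic cells, and both counting intervals of the log2 ratio (-0.31 to 1.57 and -0.16 to 1.44) included 0.

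Nfe2l2, the antioxidant regulator, passed 1.5-fold in none of the 5 states compared. It was at 229 and 227 CPM in DAM against 273 and 255 in homeostatic cells, a log2 ratio of -0.25 (-0.34 to -0.17) and -0.17 (-0.25 to -0.10). Scaled by the median of ratios in place of totals, the mean over the libraries went from -0.21 to 0.07, so no direction is read from it. Chemokine cells had the highest level, 311 and 301 CPM, and choroid plexus-gated droplets the lowest, 159 and 154 CPM, a log2 ratio of -0.78 (-1.17 to -0.41) and -0.73 (-0.95 to -0.53). Its RNA level says nothing of NRF2 activity, which is set by protein turnover.

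The 2 subunits of the oxidase core parted. Cyba was present throughout, at 969 and 1034 CPM in homeostatic cells and highest in DAM at 1474 (1442 to 1506) and 1512 (1485 to 1540), a log2 ratio of 0.60 (0.57 to 0.64) and 0.55 (0.52 to 0.58). It passed 1.5-fold in VEH and missed it in LEM, at 1.52 and 1.46. Cybb had few counts in homeostatic cells, 39 over 10105 VEH cells and 46 over 11512 LEM cells, 0.690 and 0.707 CPM. It reached 14.9 and 15.1 CPM in DAM, 22.0 and 19.8 in mitotic cells, 23.6 and 36.6 in interferon cells, 82.2 and 110 in MHC-II cells and 311 and 299 in BAM. The DAM levels rest on 82 and 114 counts, and a fold over so few homeostatic counts is not given.

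Cybb counts were gathered in few cells. Cells with at least 3 Cybb counts were 46 of 18374 in VEH and 91 of 24392 in LEM. BAM, 0.136% and 0.279% of cells, held 15.2% and 22.3% of all Cybb counts, and MHC-II cells, 0.610% and 0.344% of cells, held 17.1% and 9.5%. DAM, 2.69% and 2.65% of cells, held 18.9% and 14.6%, interferon cells 8.31% and 14.1% and ungated cells 8.78% and 14.0%. In choroid plexus-gated droplets, a type that should lack the gene, Cybb had 0 counts over 38 VEH droplets, where 3 counts of their total would be 7.97 CPM and the exact 95% interval ends at 9.79 CPM, and 1 count over 135 LEM droplets (0.813 CPM). Their median depth was 9587 and 8887 counts, and they also held microglial RNA, with the 5 microglial markers summing to 21286 and 19250 CPM. Homeostatic cells held a Cybb count in 0.346% and 0.330% of cells at a median depth of 5481 and 5431 counts, and the LEM droplets in 0.741% (0.0188 to 4.06). The droplets are too few, and deeper, to set a background level, so the homeostatic counts are not read as expression or as its absence. DAM cells held one in 8.50% and 8.98%, MHC-II cells in 26.8% and 35.7% and BAM in 88.0% and 80.9%.

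Markers of other states and cells moved with Cybb. Of the cells with at least 3 Cybb counts, 10 of 46 in VEH and 31 of 91 in LEM were BAM-gated, and 11 and 9 were MHC-II-gated. The sums below are thus in part those of the gated states. In the cells with at least 3 Cybb counts, the 4 MHC-II genes that no gate used (Cd74, Ciita, H2-DMa, H2-DMb1) summed to 7998 and 6965 CPM, against 390 and 319 CPM in cells without Cybb. The 5 BAM check genes (Stab1, Apoe, Ccl24, Folr2, Clec12a) summed to 12588 and 11900 against 1456 and 2169 CPM. That list holds Apoe, a gate marker of another state, and summed to 6682 and 6863 CPM in DAM cells and 4967 and 4696 in Apoe-high cells. The 5 microglial markers were all present at 29489 and 31852 against 36747 and 37779 CPM, and the monocyte and neutrophil list summed to 98.5 and 88.1 against 7.52 and 9.00 CPM. In that list S100a8, S100a9 and Ngp were at 0 in the cells with at least 3 Cybb counts, so its sum came from the other 3 genes, Ccr2 and Plac8 in both libraries and Ly6c2 in VEH. By state, the list summed to 49.5 and 74.1 CPM in mitotic cells and 40.0 and 45.2 in interferon cells. It summed to 3.83 and 5.56 CPM in DAM and 7.06 and 7.59 in homeostatic cells. The sort took cells with low CD45, a gate that leaves out cells with high CD45 such as most macrophages from the borders and the blood. What these markers contribute to the Cybb difference between states was not tested.

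Counted over the 9 genes, DAM had 3 above homeostatic cells by at least 1.5-fold in both libraries (Fth1, Hmox1, Cybb) and 1 below (Slc40a1). Cybb had a count in under 1% of homeostatic cells and entered each of the 5 comparisons through the other state, so its calls follow from where it is high. Without it the higher genes were 2 of the other 8 in DAM, MHC-II cells and BAM, 1 in mitotic cells and 0 in interferon cells. Of 12503 genes with a count in 1% or more of the cells of DAM or homeostatic state, 8.29% were higher and 16.4% lower. The median log2 ratio over those genes was -0.31, and that of the 9 was 0.45. Cells with counts of both sexes were 8.91% and 13.2% of DAM cells against 3.79% and 4.92% of homeostatic cells. Without such cells the mean log2 ratio over the libraries was 1.31 for Fth1, 0.79 for Hmox1 and -1.58 for Slc40a1. Scaled by the median of ratios in place of totals, 6 of the 9 were higher (with Ftl1, Tfrc and Cyba; 5 of 8 without Cybb) and 1 lower, where 12.6% of all genes were higher and 6.53% lower. MHC-II cells gave the same 4 calls (background 7.67% higher and 6.89% lower, median -0.16). In MHC-II cells the 5 BAM check genes, Apoe among them, summed to 7155 and 8091 CPM against 591 and 949 in homeostatic cells. The monocyte and neutrophil list summed to 52.2 and 121 CPM against 7.06 and 7.59, with Ly6c2, S100a8, S100a9 and Ngp at 0, and the 5 microglial markers to 35260 and 36062 against 36831 and 37803. In mitotic cells the monocyte and neutrophil list summed to 49.5 and 74.1 CPM, and in interferon cells to 40.0 and 45.2. The part of such cells in the MHC-II, mitotic and interferon values was not tested. BAM had 3 higher, Fth1, Hmox1 and Cybb, and 0 lower (8.09% and 8.85%). These rest on 25 and 68 cells, of which 20.0% and 25.0% held counts of both sexes. The Hmox1 log2 ratio in BAM was 0.82 (-0.14 to 1.62) in VEH, an interval that included 0, and 0.70 (0.16 to 1.19) in LEM. Slc40a1 was at 0.671 and 0.430 of the homeostatic level in BAM, in VEH and LEM, and at 0.672 and 0.652 in interferon cells. In both states it passed the fold in LEM and narrowly missed it in VEH. Interferon cells had 1 higher, Cybb, and 0 lower (5.53% and 3.7%, median -0.14), and mitotic cells 2 higher, Tfrc and Cybb, and 2 lower, Slc40a1 and Slc11a1 (20.6% and 9.8%), where 2 of 9 higher is close to the background share and 1 of 8 without Cybb is below it.

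Fth1 and Slc40a1 were graded over the DAM markers. By the number of DAM markers with a count, from 0 to 5, in cells outside the choroid plexus, BAM, mitotic and interferon gates, Fth1 in VEH was at 1769, 2135, 3109, 3914, 4421 and 4691 CPM. In LEM the steps were 1852, 2174, 3292, 3933, 4416 and 4452 CPM. Fth1 was higher at each step in both libraries, although the last LEM step lay within counting error. Slc40a1 was lower at each step, with the last step of each library and the step from 3 to 4 markers in VEH within counting error, from 165 through 150, 107, 73.0 and 55.2 to 50.8 CPM in VEH and from 152 through 139, 101, 68.0 and 46.8 to 41.2 CPM in LEM. Hmox1 was at 33.8, 40.2, 58.7, 52.8, 63.5 and 44.1 CPM in VEH and 36.6, 40.6, 54.5, 59.7, 63.7 and 51.0 in LEM, and from 2 markers on its neighbouring steps overlapped in their intervals.

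Depth grew along these steps, from a median of 5681 to 12768 counts in VEH. Cells were then thinned to 2000 counts and the markers counted anew, with shallower cells left out (7.10% of VEH and 4.98% of LEM cells). Fth1 went from 1789 CPM with 0 markers to 4889 with 3 in VEH and from 1894 to 5048 in LEM. At 4 markers it was at 4683 and 4970 CPM, on 30 and 33 cells. Slc40a1 went from 160 CPM with 0 markers to 30.3 with 3 in VEH and from 151 to 40.4 in LEM, the last on 6 and 11 counts. At equal depth the Fth1 levels thus differed up to 3 markers and not beyond counting error from 3 to 4. In cells of 4000 to 8000 counts, the mean log2 ratio of DAM over homeostatic cells was 1.35 for Fth1, 0.93 for Hmox1 and -1.50 for Slc40a1, against 1.26, 0.79 and -1.45 over all depths.

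**Figure D2:**
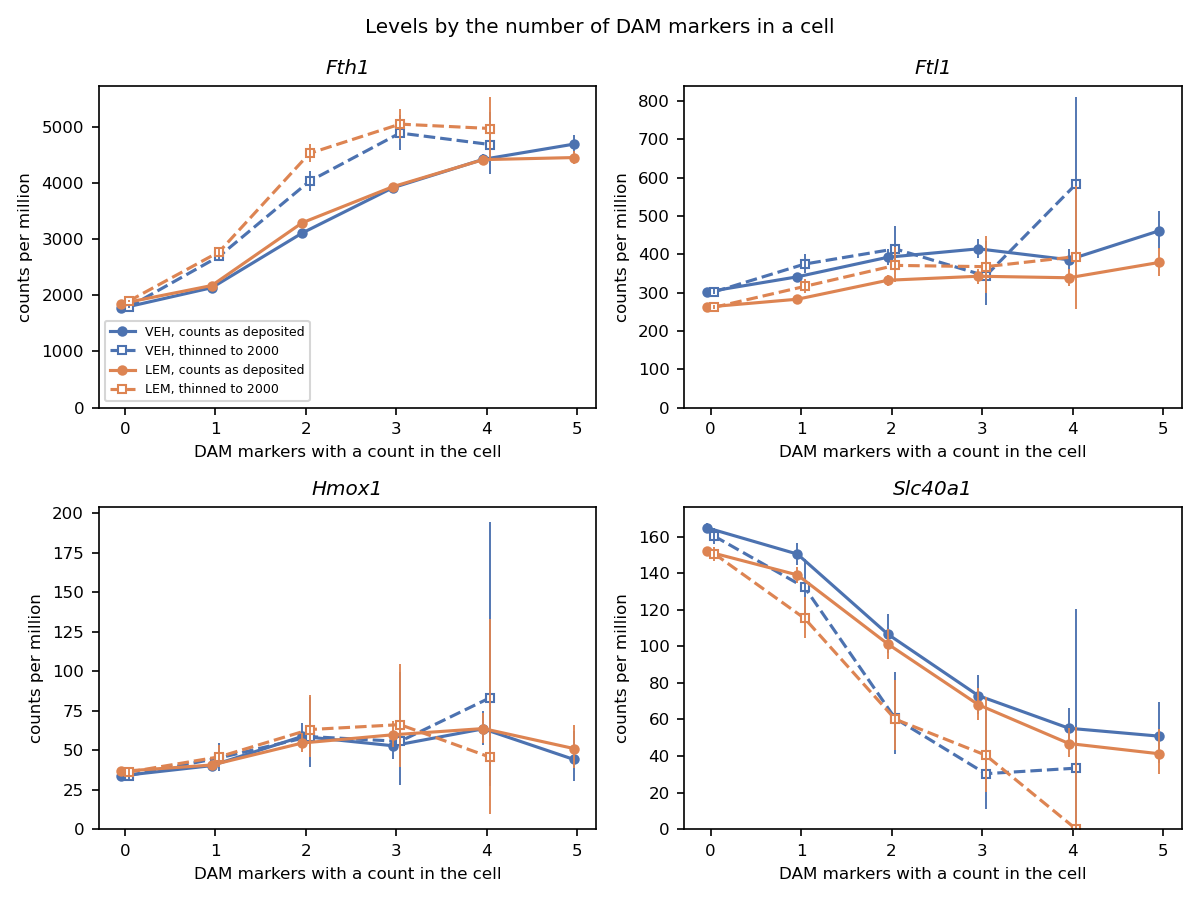
Level of Fth1, Ftl1, Hmox1 and Slc40a1 in CPM (y axis) by the number of DAM markers with a count in the cell (x axis), for VEH and LEM, as deposited (filled points) and after thinning to 2000 counts (open squares); bars are exact Poisson 95% intervals. Fth1 goes from 1769 to 4691 CPM in VEH while Slc40a1 goes from 165 to 50.8 CPM.

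Between the libraries a lower limit was used. At a limit of 25% higher or 20% lower, the same fold in either direction, 1 of the 9 was higher in LEM (Cybb, 3.73 CPM in VEH and 4.85 in LEM) and 0 were lower, where 3.98% of 11910 genes were higher and 2.87% lower. The Cybb log2 ratio was 0.38 (0.21 to 0.55). It was 0.04 (-0.61 to 0.69) in homeostatic cells, 0.01 in DAM, -0.05 in BAM, 0.43 (-0.06 to 0.91) in MHC-II cells, -0.51 (-1.19 to 0.20) in Apoe-high cells, 0.63 (0.08 to 1.22) in interferon cells and 1.07 (0.53 to 1.65) in ungated cells. Few cells carried the last 2 values. Cells with at least 3 Cybb counts were 3 in VEH and 13 in LEM among interferon cells and 0 and 10 among ungated cells, while the share of cells with a count was 12.9% and 11.2% in interferon cells and 0.80% and 1.24% in ungated cells (0.506% and 0.595% after thinning to 2000 counts). In early-response cells it rests on 3 and 6 counts. It ended below the limit without choroid plexus-gated and BAM cells (0.26), with states weighted equally (0.25), as a mean over cells of counts per 10000 (0.29) and with cells thinned to 2000 counts (0.08), and stayed above it without BAM and MHC-II cells (0.39, chosen after seeing the data). BAM were 0.136% of the VEH and 0.279% of the LEM library, and the part of that share in the ratio was not tested.

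Over all cells the other 8 genes stayed within the limit, Hmox1 at 0.11 (0.05 to 0.17). Within single states, Hmox1 at 1.15 (0.46 to 1.89) and Slc11a1 at 0.83 (0.55 to 1.11) in mitotic cells and Tfrc at -0.63 (-1.09 to -0.17) in chemokine cells were past the limit. The share of all genes past it within a single state was not computed, so these values are not read as particular to these genes. The other values of the 8 past it had intervals that included 0. They were Hmox1 and Slc40a1 in choroid plexus-gated droplets, Slc40a1 in BAM and Tfrc in 5 states. Tfrc in MHC-II cells, with at most 3 counts in either library, was left out. Slc11a1 was at 227 CPM (225 to 230) in VEH and 263 (261 to 266) in LEM, a log2 ratio of 0.21 (0.19 to 0.23), and was higher in LEM in 9 of 11 states, in female cells (0.24) and in male cells (0.20). DAM was an exception, at -0.12 (-0.21 to -0.03). Among DAM cells it was 0.11 (-0.05 to 0.27) for females and -0.17 (-0.31 to -0.04) for males. Ftl1 was at 314 CPM in VEH and 272 in LEM, -0.21 (-0.23 to -0.19), lower in 10 of 11 states and in both sexes (-0.24 and -0.20), and its copy Ftl1-ps1 was lower as well (8.22 and 5.69 CPM). Slc40a1 was at 154 and 141 CPM, -0.13 (-0.16 to -0.11), with -0.13 in each sex. Nfe2l2 was at 272 and 257, -0.08 (-0.10 to -0.06), and lower in 11 of 11 states. Its interval included 0 in choroid plexus-gated droplets and in BAM, mitotic, DAM, MHC-II, chemokine and ungated cells. By sex, Nfe2l2 was higher in LEM in 1 of 8 states of female cells and 3 of 9 of male cells. Cyba was at 1018 and 1098, 0.11 (0.10 to 0.12), and higher in 11 of 11 states. Its interval included 0 in choroid plexus-gated droplets, BAM, DAM and MHC-II cells. Tfrc was at 5.13 and 4.32 CPM, -0.25 (-0.41 to -0.09). Its female cells gave -0.20 (-0.46 to 0.05) and its male cells -0.47 (-0.73 to -0.22). A ratio whose interval leaves out 0 is a difference between 2 pools. All states come from the same 2 pools, so states that go the same way are not replicates.

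Fth1 went in opposite directions in the sexes. Over all cells it was at 1998 CPM in VEH and 2113 in LEM, 0.08 (0.07 to 0.09). Female cells had 1941 CPM in VEH and 2374 in LEM, 0.29 (0.28 to 0.30), and male cells 2010 and 1885, -0.09 (-0.10 to -0.08). Female cells were higher in LEM in all 8 states with at least 20 cells per library (0.23 to 0.51), and male values were below 0 in all 9 (-0.17 to -0.0038), with intervals that included 0 in mitotic and MHC-II cells. DAM had 3845 and 4530 CPM in female and 4470 and 3972 in male cells, and homeostatic cells 1708 and 2001 against 1718 and 1595. In VEH the sexes differed by -0.05 (female over male) and in LEM by 0.33. The female and male cells of a pool come from different mice, their number per sex is not given in the sources used here, and no test of the difference is possible. How many of all genes differed as much between the sexes was not counted, so the split is not read as particular to Fth1. Hmox1 was at 33.2 and 40.8 CPM in female cells (0.30, 0.20 to 0.40) and 37.5 and 38.6 in male cells (0.04, -0.04 to 0.12). Cybb was at 3.23 and 5.02 in female cells (0.64, 0.32 to 0.96) and 3.56 and 3.69 in male cells (0.05, -0.21 to 0.32).

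**Figure D3:**
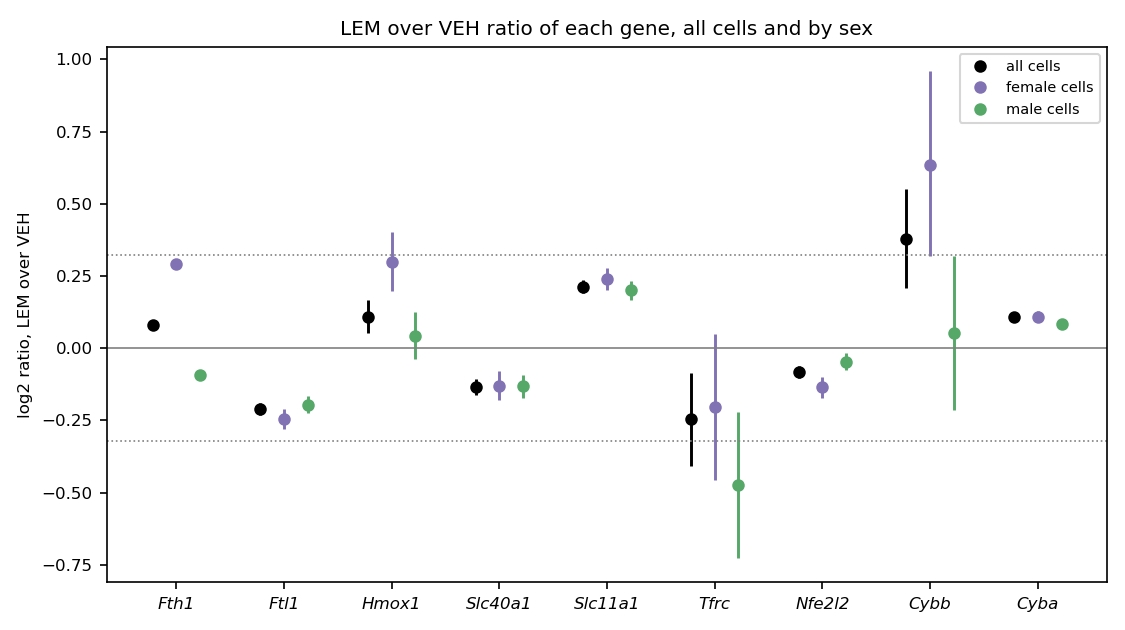
Log2 ratio of LEM over VEH (y axis) of each gene (x axis) over all, female and male cells; bars are exact 95% counting intervals and dotted lines mark 25% higher and 20% lower. Over all cells Cybb alone passes the line, at 0.38, and Fth1 is at 0.29 in female and -0.09 in male cells.

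**Figure D4:**
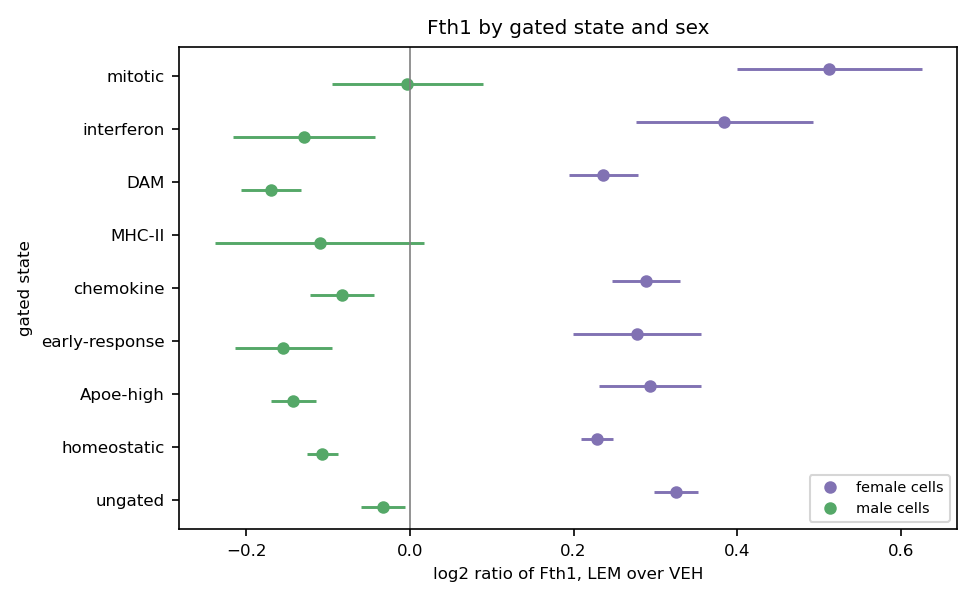
Log2 ratio of Fth1, LEM over VEH (x axis), by gated state (y axis) in female and male cells with exact 95% counting intervals, for states with at least 20 cells of that sex in each library. All 8 female values lie between 0.23 and 0.51 and all 9 male values between -0.17 and -0.0038.

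Other genes of the 3 pathways were taken from lists set by pathway, with earlier results of these data known. Of 38 other iron genes, 30 were detected in at least 1% of DAM or homeostatic cells, of which 1 was higher in DAM and 4 were lower, where 8.29% of all genes were higher and 16.4% lower, so these counts are not above the share of all genes. The median log2 ratio was -0.32, beside -0.31 over all genes. Heph, a ferroxidase that works with ferroportin, was at 231 and 236 CPM in homeostatic cells and 458 and 436 in DAM. Cp, the other ferroxidase of that step, was lower in DAM on few counts (4.37 to 1.28 and 4.92 to 1.85 CPM), as were Slc25a37, the mitochondrial iron importer (32.2 to 14.4 and 32.8 to 13.9), Hfe, which regulates iron sensing (81.1 to 47.4 and 73.0 to 36.8), and Bach1, a repressor of Hmox1. Trf, which encodes transferrin, was at 744 and 725 CPM in homeostatic cells and 999 and 1004 in DAM, short of 1.5-fold.

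Of 35 oxidant defence genes, 32 were detected, of which 5 were higher in DAM (Txn1, Prdx1, Prdx4, Prdx6, Maff) and 1 lower (Osgin1), where 8.29% of all genes were higher and 16.4% lower. The list's median was 0.24, beside -0.31 over all genes. Prdx4, a peroxiredoxin of the secretory pathway, went from 59.0 and 59.4 CPM in homeostatic cells to 186 and 181 in DAM, and Prdx1, a cytosolic peroxiredoxin, from 161 and 160 to 283 and 311. Maff, a small partner of NRF2 and BACH1, went from 4.79 and 3.31 to 25.9 and 21.6 CPM. Gclc, the catalytic subunit of the enzyme that limits glutathione synthesis, was at 69.9 and 61.9 in homeostatic cells and 49.9 and 44.5 in DAM, short of 1.5-fold. Of 10 other NADPH oxidase genes, 9 were detected, with 0 higher and 2 lower in DAM (Ncf1 and Nox1). Beside 8.29% and 16.4% of all genes, 2 of 9 lower is near the background share. The median was -0.39, beside -0.31 over all genes. The DAM calls of the 3 lists use scaling by totals, and with the median of ratios 6.53% of all genes were lower. Nox1 was at 3.17 and 3.54 CPM in homeostatic cells and 1.64 and 1.06 in DAM. Ncf1, a cytosolic organizer of the complex, was at 352 and 393 CPM in homeostatic cells and 221 and 261 in DAM.

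Between the libraries the lists were read beside all genes, of which 3.98% were higher and 2.87% lower. Of 30 iron genes 0 were past the limit in either direction, of 32 oxidant defence genes 1 was higher (Osgin1, 7.19 and 9.00 CPM in VEH and LEM) and 1 lower (Maff, 7.32 and 5.36), and of 9 oxidase genes 0. The list medians of the log2 ratio were 0.00053, 0.04 and -0.01, beside 0.01 over all genes. Lrp1, a receptor that takes up haem bound to hemopexin, was at 335 and 374 CPM and Ncf4, a cytosolic oxidase subunit, at 98.4 and 84.3.

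Likeness of pattern was measured as Pearson's r of log2(CPM + 1) over 22 points, the 11 states of both libraries, among 9151 genes with a mean of at least 10 CPM. The points share libraries, depth and cells' marker gates, so r is a description. Fth1 was most like Rps15 (0.98), Rpl35 (0.96) and Rpl28 (0.96), all genes of ribosomal proteins. Cybb was most like Cd72 (0.98), Fxyd5 (0.95) and Gpr65 (0.94), Cyba like Lamp1, Tpd52 and Pkib (each 0.95), and Slc40a1 like Erf (0.94), Lysmd4 and Plcl2 (0.93 each). Ftl1 was most like Grik3 (0.93), Sirt2 (0.91) and Fcer1g (0.90), Hmox1 like Arl11 (0.90), Arpc5 (0.89) and Rnf41 (0.89), Slc11a1 like Rnf41 (0.92), Mybbp1a (0.91) and Gngt2 (0.90), and Nfe2l2 like Gfm2, Irf5 (0.92 each) and Mcl1 (0.91). Tfrc, on 596 and 695 counts, reached no more than 0.73, with Srpk2, followed by Sertad2 (0.71) and Atg16l2 (0.70).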

How the data were processed

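The authors deposited whole-number counts of unique molecular identifiers per gene and cell, made with Cell Ranger 8.0.0 on mm10 per the labels. The study names SoupX for free RNA, and whether its correction is in the table cannot be told. The study's limits (500 genes, 20000 counts, 2.5% mitochondrial counts) removed 0 further cells. Cell names carry no barcodes, so barcodes shared between libraries could not be counted. The 9 genes, the gates and the lists were chosen with earlier results of these data known. One DAM gate marker was not analysed here, leaving 6 of 7. No doublet caller was run, and cells with both Xist and Y-linked counts were left out in an alternative. Counts were summed per library and state, with exact 95% intervals (Poisson, Clopper-Pearson, conditional binomial) for counting error. Since a treatment was 1 library, no test was made. Limits of 25% higher or 20% lower (LEM over VEH) and 1.5-fold in both libraries (states) marked genes detected in at least 1% of cells. From each list the 3 highest and 3 lowest ratios, and per gene the 3 most similar genes, were eligible to be named, beside those past a fold. Depth was equalized by thinning to 2000 counts, with shallower cells left out. Alternatives changed scaling, cells, sex, gates and depth. Gene positions came from GENCODE M21 (GRCm38). Python 3.11.15, numpy 2.4.6, scipy 1.17.1 and pandas 2.3.3 were used, and scripts were tested on simulated data.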

Additional observations from a re-analysis of the deposited data

Results flagged for a closer look

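The log2 ratio of Fth1 between LEM and VEH was 0.29 in female cells and -0.092 in male cells, opposite directions under the same contrast. Each value comes from 1 library per treatment, and the difference between the sexes was not tested. How many of all genes differed as much was not counted.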

How the results depend on the processing

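No paired analysis was possible because each treatment has 1 library, and for the same reason no replicate could be left out. The counts here include Cybb. Of 58 alternative counts of genes past a fold, 45 lay within 1.5 times the reported count. The count of 1 gene between LEM and VEH went to 0 as a mean over cells of counts per 10000, without choroid plexus-gated and BAM cells, in homeostatic cells alone, with states weighted equally and with thinning to 2000 counts. It went to 4 (Ftl1, Slc11a1, Tfrc, Cybb) at a fold of 1.1, chosen after seeing the data. The share of all genes past that fold was not computed, so this count has no background. Nor was it computed for the other alternatives, except DAM with the median of ratios. In male cells alone it was also 1, but the gene was Tfrc. The DAM count of 4 went to 7 with scaling by the median of ratios, and the interferon count of 1 to 2 with that scaling, with thinning and without cells of both sexes' counts. The BAM count of 3 went to 5 as a mean over cells of counts per 10000, and the mitotic count of 4 to 2 with thinning and in female cells alone. The cause was not tested. Of 100 alternative single-gene ratios of LEM over VEH 30 left the counting interval of the reported value and 99 kept their sign, and of 409 state ratios 59 left it and 388 kept their sign. BAM had under 10 VEH cells after thinning, in the band of 4000 to 8000 counts and in female cells, so those values were not computed, and Tfrc gave no finite ratio after thinning in DAM, interferon and mitotic cells or in MHC-II cells of the depth band and of females. The MHC-II gate could not be made stricter by 1 marker. Few counts of Tfrc and Cybb limit their ratios.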

Other observations

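In mitotic cells 7 of 32 oxidant defence genes were at least 1.5-fold above homeostatic cells in both libraries (Gclc, Txn1, Prdx1, Prdx4, Sod1, Gpx1, Tkt) and 5 below (G6pdx, Mafk, Sqstm1, Gstm1, Osgin1), beside 20.6% and 9.8% of all genes, so the share of higher genes was close to that of all genes. The list's median log2 ratio was 0.07, as over all genes. In BAM 5 of 30 iron genes were higher, Steap3, Heph, Cp, Trf and Blvrb, and 0 were lower, leaving out Cd163, a marker of the gate that passed the 1% filter through BAM alone, beside 8.09% and 8.85% of all genes. MHC-II cells had Heph and Cp higher and Slc25a37 and Bach1 lower of 30 detected iron genes, beside 7.67% and 6.89% of all genes. Cp was at a few CPM in homeostatic cells, so its ratios rest on few counts in the small states. Interferon cells had 0 of 30 iron genes past the fold in either direction, beside 5.53% and 3.7% of all genes.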
